A study of Mus musculus with 6 samples.

Results

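The genes described here belong to the sebaceous gland, the oil gland of the hair follicle, and were followed in lymphatic endothelial cells (LECs) cut from tumour and from skin. The set holds 7 genes: Far2, Awat1, Awat2, Cidea, Plin2, Krt79 and Mc5r. All probe sets whose annotation gave one of these symbols, current or older, as their only gene were taken, which yielded 6 probe sets for 5 of the 7 genes among 45037 probe sets and 18193 genes in all. Far2 had a pair of probe sets and Krt79, Mc5r, Cidea and Plin2 had 1 each, while Awat1 and Awat2 were matched by none and were not analysed here. The genes were chosen by a reading of the log2 signals in which the contrast between tumour and healthy skin was already known, so the values in that contrast are given as a description and without a test.

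The series compared 3 samples of tumor-associated LECs with 3 samples of LECs from healthy tissue, each on 1 mouse Affymetrix expression array. The tumour LECs came from xenografts of the human line MDA-MB-435, injected under the skin and excised 8 weeks later, and the normal LECs from mammary skin of balb-c/nude mice. MDA-MB-435 has long been used as a breast cancer model and was later traced to a melanoma. Nude mice lack a thymus and mature T cells, but keep macrophages and other innate immune cells, and their hair growth is defective. Sections were stained for LYVE-1, a surface receptor that marks lymphatic vessels, and stained cells were cut out with a laser, so each sample holds whatever lay in the captured area. RNA went through 1 round of Ribo-SPIA amplification. The labels speak of biological replicates without naming animals, and p-values below measure only the spread between these samples.

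Sebocytes, the cells of the sebaceous gland, fill with lipid droplets as they mature and then burst, releasing their contents as sebum. Much of mouse sebum is wax ester, made when a fatty acid is reduced to a fatty alcohol and that alcohol is joined to another fatty acid. FAR2 carries out the reduction, and AWAT1 and AWAT2 the joining. CIDEA and PLIN2 sit on lipid droplets: CIDEA promotes their fusion and PLIN2 coats them. MC5R is a melanocortin receptor that mouse sebum production needs, and KRT79 is a keratin of the upper hair follicle and of the duct that leads out of the gland. Plin2 is also found in many other cells that store lipid, and Cidea in brown fat and in the lactating mammary gland.

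The arrays were alike in overall level, and 1 of them stood apart in the genes described here. Background, for which each array's 95th percentile over the 27 probe sets for bacterial transcripts was used, lay between 3.42 and 3.91 (log2) in tumours and between 2.96 and 3.81 in healthy skin. The 9 measured lymphatic markers summed to a linear signal of 2446 to 2768 in tumours, against 640 to 1377 in healthy skin, where Lyve1 was below background on replicate 1. Tumour replicate 2 had the highest signal of the 3 tumour arrays in all 12 macrophage markers, and the lowest mean of 18 hybridization control probe sets among the tumour arrays (12.78, against 13.20 and 13.36, log2). That mean was 13.01, 12.35 and 12.33 in healthy-skin replicates 1, 2 and 3, so replicates 2 and 3 there were lower still.

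Far2, the fatty acyl-CoA reductase, was lower in tumour LECs on both of its probe sets. The brighter one, 1455889_at, read 3.53, 7.70 and 4.24 (log2) in tumour replicates 1, 2 and 3, against 11.39, 9.72 and 10.32 in the healthy-skin replicates. Replicates 1 and 3 of the tumours were close to background, replicate 2 lay between them and healthy skin, and the groups did not overlap. The means were 5.16 ± 2.23 in tumours and 10.48 ± 0.84 in healthy skin (SD, n = 3 arrays per group), a log2 difference of -5.32 with a standard error of 1.08, or 39.9-fold lower in tumours. Of all 45037 probe sets, 9 had a difference this low or lower, itself included. Without tumour replicate 2 the difference was -6.59, and that replicate by itself was 2.77 below the healthy mean.

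The second Far2 probe set, 1435621_at, read 3.39, 4.24 and 3.65 (log2) in tumours, against 5.09, 7.83 and 5.71 in healthy skin. The groups were again separate, and only tumour replicate 2 was above its array's background. Its difference was smaller, -2.45 with a standard error of 0.71. The probe sets also ordered the healthy-skin arrays differently: replicate 1 was the highest on 1455889_at and the lowest on 1435621_at. The direction of Far2 therefore rests on both probe sets, whereas its size and its order among healthy-skin samples depend on which is read.

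Cidea, the droplet fusion protein, was above background on all 3 healthy-skin arrays and on 1 of 3 tumour arrays. It read 3.38, 3.66 and 2.92 (log2) in tumours, against 4.28, 7.86 and 5.19 in healthy skin. In tumours that was replicate 2, and healthy-skin replicate 2 was far above the other healthy samples. The log2 difference was -2.46 with a standard error of 0.87. Without healthy-skin replicate 2 it was -1.42, and the groups stayed separate.

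Plin2, the droplet coat protein, was well above background on all 6 arrays. It read 6.60, 7.80 and 7.23 (log2) in tumours, against 8.43, 9.01 and 8.58 in healthy skin. The groups lay 0.63 apart at their nearest values, and the healthy samples were close together. The means were 7.21 ± 0.60 in tumours and 8.67 ± 0.30 in healthy skin, a log2 difference of -1.46 with a standard error of 0.38, or 2.76-fold lower in tumours. Of the members that were lower, Plin2 had the smallest difference.

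Krt79, the keratin of the gland's duct, read 5.43, 5.80 and 3.91 (log2) in tumours, against 6.75, 7.96 and 8.30 in healthy skin. Tumour replicate 3 was just under its array's background, and no tumour value reached a healthy one. The log2 difference was -2.62 with a standard error of 0.62, or 6.16-fold lower in tumours. Krt79 had its lowest tumour value in replicate 3, unlike Far2 on both probe sets and Plin2, which had theirs in replicate 1.

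Mc5r, the melanocortin receptor, gave no signal that could be told from background. It read 2.73, 3.10 and 3.05 (log2) in tumours, against 2.27, 2.89 and 2.70 in healthy skin, and was below background on all 6 arrays. No fold is given, since both groups carry only an upper bound.

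**Figure D1:**
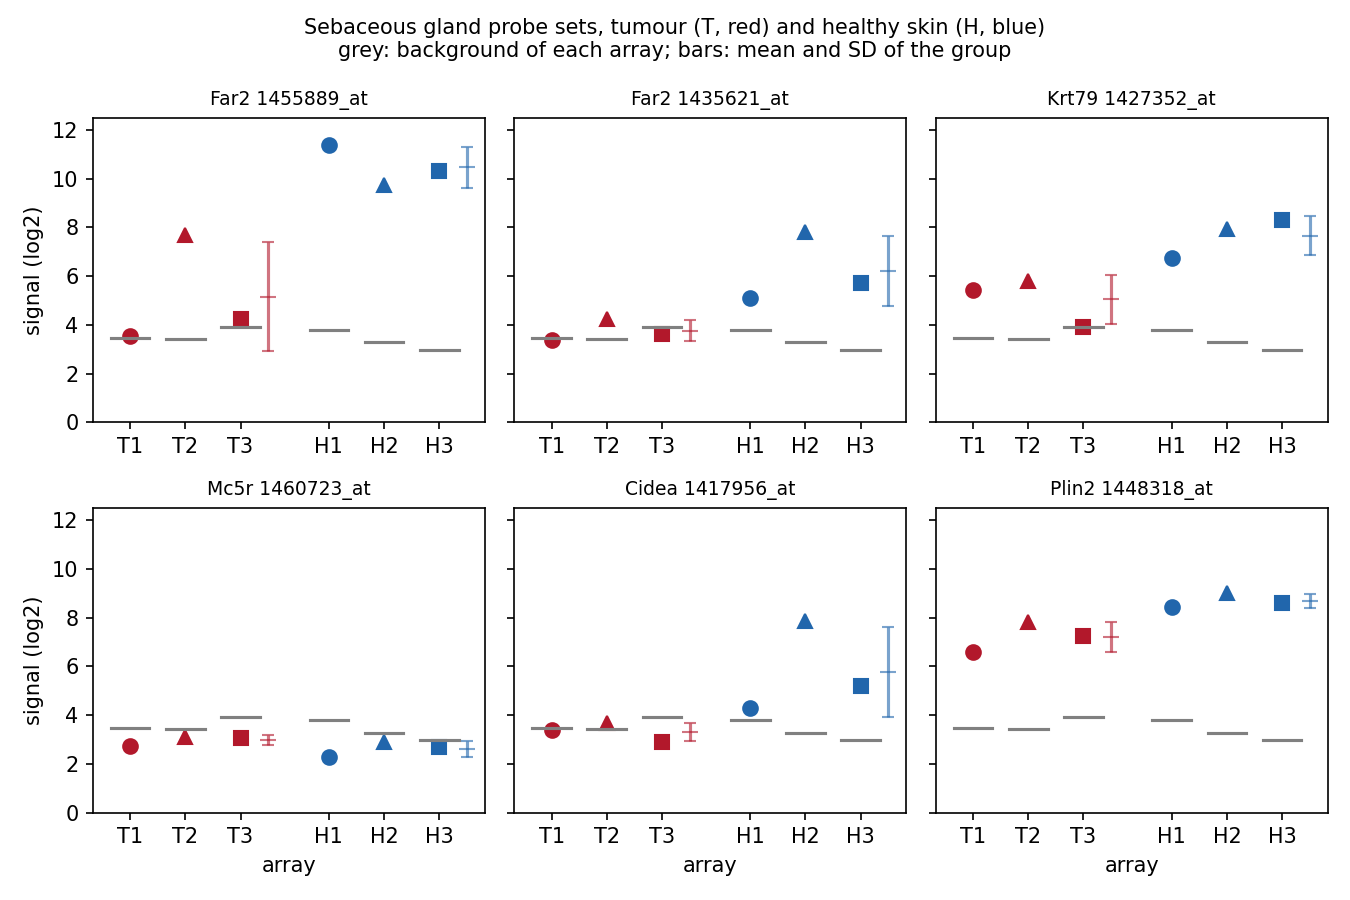
Signal (log2) of each sebaceous gland probe set on the 3 tumour arrays (T1 to T3, red) and the 3 healthy-skin arrays (H1 to H3, blue), with each array's background as a grey line and the group mean and SD as a bar. Tumour values lie below healthy-skin values in 5 of the 6 panels, Far2 on 1455889_at is at 7.70 in T2 against 3.53 and 4.24 in T1 and T3, and Mc5r stays under the grey lines.

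Counted together, 5 of the 6 member probe sets had all tumour values below all healthy-skin values, as did 4.91% of all probe sets. The remaining probe set was that of Mc5r. Among all probe sets, limma's adjusted threshold of 0.05 was passed by 2 (0.00444%), which had higher signal in tumours. The median log2 difference was -2.46 over the 5 measured genes, Mc5r included, and 0.08 over all 18193 genes. These counts describe a set chosen with the contrast known. In these samples fewer cells of a type and less RNA per cell cannot be told apart.

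The promoters of Far2, Krt79 and Plin2, 3 of the genes that had lower signal in tumours, are shown. Cidea was also lower, and its promoter is not shown. The sequences run 5′ to 3′ from 250 bases before to 50 bases after the annotated start and are from RefSeq, build GRCm38.p6. The Far2 window is chr6:148047166-148047465, plus strand, that of Krt79 is chr15:101940275-101940574, minus strand, and that of Plin2 is chr4:86670010-86670309, minus strand. Capitals mark matches, on either strand, to AGGTCA (bound by nuclear receptors such as PPAR), CACGTG (an E-box), CCAAT or TATAAA.
Far2: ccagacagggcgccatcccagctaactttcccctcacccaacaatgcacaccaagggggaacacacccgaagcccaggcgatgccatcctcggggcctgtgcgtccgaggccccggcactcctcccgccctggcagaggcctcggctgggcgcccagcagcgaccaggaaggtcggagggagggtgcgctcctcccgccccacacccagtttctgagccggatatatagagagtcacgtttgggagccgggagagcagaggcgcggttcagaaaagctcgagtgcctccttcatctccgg
Krt79: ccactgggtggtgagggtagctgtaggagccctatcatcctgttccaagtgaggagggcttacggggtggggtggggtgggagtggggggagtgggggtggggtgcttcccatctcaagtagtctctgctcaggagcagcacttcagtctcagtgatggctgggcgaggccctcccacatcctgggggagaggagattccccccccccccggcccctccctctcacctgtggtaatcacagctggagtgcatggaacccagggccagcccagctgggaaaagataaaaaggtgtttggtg
Plin2: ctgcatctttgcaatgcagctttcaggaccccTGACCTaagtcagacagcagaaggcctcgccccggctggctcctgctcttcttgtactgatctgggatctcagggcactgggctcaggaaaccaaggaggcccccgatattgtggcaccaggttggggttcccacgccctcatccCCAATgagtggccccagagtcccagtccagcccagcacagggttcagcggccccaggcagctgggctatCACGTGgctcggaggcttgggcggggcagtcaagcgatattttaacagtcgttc
The Plin2 window holds AGGTCA on its other strand, CCAAT and CACGTG, at 218, 73 and 4 bases before the start. Those letters occur in 16.3%, 37.4% and 7.15% of 32851 promoter windows of the same length, and TATAAA in 13.6%. None of the 4 motifs is in the Far2 or Krt79 window, which says only that these letters are not in these windows.

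The other enzymes that build sebum lipids were read from a list of 13 acyltransferases and reductases, of which 10 were measured. None passed the adjusted threshold in limma, which 0.0055% of genes did, and 3 were lower and 0 higher at an unadjusted p under 0.05, against 4.28% of genes lower and 3.22% higher in the background of 1 probe set per gene. Their median log2 difference was -0.30. Far1, the second fatty acyl-CoA reductase, read 3.22, 1.79 and 4.14 (log2) in tumours, against 5.87, 6.20 and 7.47 in healthy skin on its brightest probe set. Its difference was -3.46 with a standard error of 0.69 (limma adjusted p = 0.395), and its other 4 probe sets differed by between -1.08 and 0.49. On its brightest probe set Far1 was above background in tumour replicate 3 alone. The values in tumour replicates 1 and 2 are only upper bounds, and their order cannot be read.

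Of the other enzymes, Gpam, the mitochondrial acyltransferase that starts glycerolipid synthesis, differed by -3.15 (standard error 0.94, limma adjusted p = 0.644). Its tumour values were 4.54, 7.34 and 3.97 (log2), against 7.38, 8.62 and 9.30 in healthy skin, so that replicate 2 was again the highest of the tumours, and the difference without it was -4.17. Its other probe set had 0.87. Dgat1, which completes triglyceride synthesis, differed by -0.97 (standard error 0.27, limma adjusted p = 0.609), with groups that did not overlap, and by 0.63 on its other probe set. Gpat3, a further glycerol phosphate acyltransferase, was above background on no tumour array and on 2 healthy-skin arrays, so that no fold is given.

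Genes that make, lengthen and desaturate fatty acids were mostly lower in tumours. Of 19 listed, 18 were measured and 15 of those had negative differences, with a median of -2.40. No member of the list passed the adjusted threshold in limma, while 11 were lower and 2 higher at an unadjusted p under 0.05, against 4.28% of genes lower and 3.22% higher. The higher ones, named after their values were seen, were the desaturase genes Scd2 (1.56) and Fads2 (0.71). Scd2 was above background on 1 healthy-skin array, its groups overlapped, and its other probe sets differed by 0.57 and -0.31. Fads2 was read on a probe set ending in _x_at, whose probes may match other transcripts, and its other ones differed by 0.23 and 0.67. In 10 of the 18 every tumour value lay below every healthy one, against 5.36% of all genes. Elovl3, an elongase of very long chain fatty acids known in sebaceous gland and brown fat, read 3.26, 4.61 and 2.68 (log2) in tumours, against 5.77, 7.20 and 6.62 in healthy skin (difference -3.01, standard error 0.59, limma adjusted p = 0.39). It was under background in tumour replicates 1 and 3, so its values there are only upper bounds.

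The polyunsaturated fatty acid elongase Elovl5 differed by -2.88 (standard error 0.54, limma adjusted p = 0.367) on a probe set ending in _x_at, whose probes may match other transcripts, and by -2.54 on its other one. Elovl7 differed by -3.11 (standard error 0.66, limma adjusted p = 0.467), also on an _x_at probe set, and its other 5 probe sets differed by between -2.42 and -0.31. On the _x_at probe set Elovl7 was under background in tumour replicates 2 and 3, so its values there are only upper bounds. Fatty acid synthase, Fasn, differed by -1.73 (standard error 0.39, limma adjusted p = 0.517). Its tumour values were 5.73, 4.71 and 5.94 (log2), against 7.22, 6.93 and 7.42 in healthy skin, so here replicate 2 was the lowest of the tumours.

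**Figure D2:**
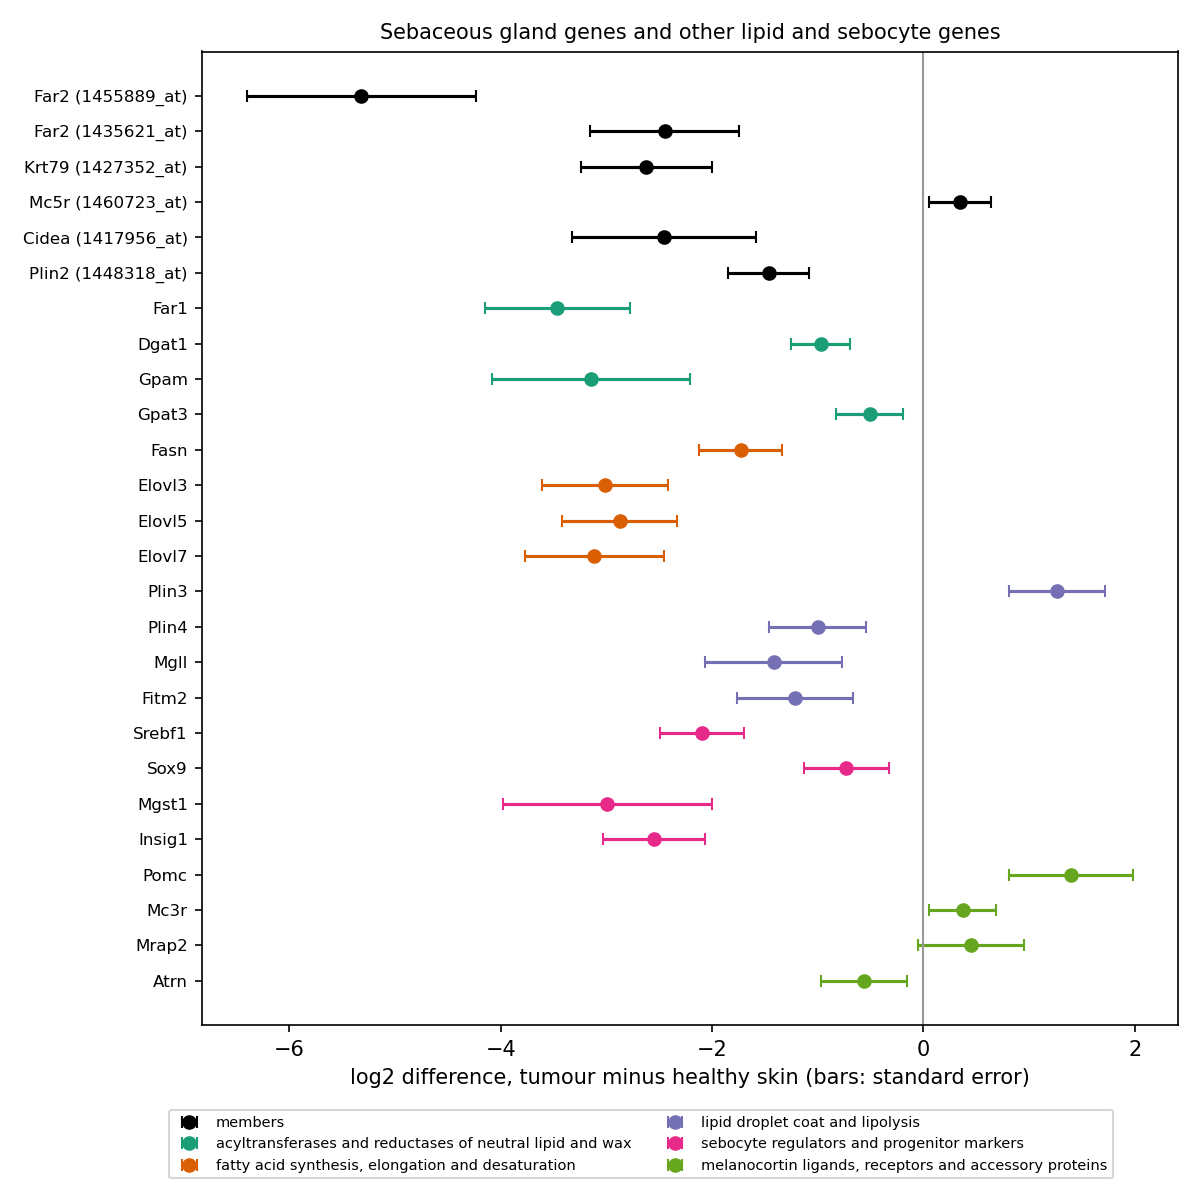
Log2 difference, tumour minus healthy skin, with its standard error for the 6 member probe sets (black) and for 4 genes of each of 5 other lists of lipid and sebocyte genes (colours). Of the probe sets plotted, Far2 on 1455889_at lies farthest left at -5.32, and Mc5r, below background on all arrays, is at 0.34. Plin3 and Pomc lie to the right at 1.27 and 1.40. Only the genes with the smallest limma p of each list are plotted. Elovl6 (-6.38), Fa2h (-6.19), Scd1 (-6.07) and Elovl4 (-5.48) had lower differences than Far2 and are not shown.

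Tumour replicate 2 had higher signal than the other tumour samples for Far2, Plin2 and Krt79 and for a group of fatty acid genes. As measured, it was the highest of the 3 tumour arrays in 6 of 6 member probe sets and in 11 of 18 fatty acid genes. The 6 include Mc5r, under background, and Cidea, whose order cannot be read. It was the highest in 25.6% of all probe sets and in 26.9% of genes. The gap to the next tumour array was 3.46 (log2) for Far2 on 1455889_at, 0.58 for Plin2 and 0.37 for Krt79. It was 0.59 for Far2 on 1435621_at, where replicates 1 and 3 were under background. For Cidea these replicates were also under background. The background of replicate 3 (3.91) was above the Cidea value of replicate 2 (3.66), so no gap is given. Healthy-skin replicate 2 was likewise the highest healthy-skin array in 4 of 6 member probe sets, against 25.1% of all probe sets. The exceptions were Far2 on 1455889_at and Krt79. Whether the shared replicate number has a part in this was not tested.

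The fatty acid genes with the pattern of the brighter Far2 probe set were picked out after their values were seen. Scd1, the main stearoyl-CoA desaturase of the sebaceous gland, read 2.87, 9.93 and 3.44 (log2) in tumours, against 10.90, 12.04 and 11.49 in healthy skin. Elovl4, an elongase of very long chain fatty acids, read 3.16, 8.75 and 3.03 in tumours, against 9.74, 11.02 and 10.61 in healthy skin. Elovl6, an elongase of long chain fatty acids, read 2.25, 8.31 and 2.60 in tumours, against 10.03, 11.50 and 10.78 in healthy skin. These genes were under background in tumour replicates 1 and 3, so that their values there are only upper bounds. The same held for Fa2h, a fatty acid hydroxylase, which read 1.82, 8.55 and 1.94 in tumours, against 10.10, 10.66 and 10.13 in healthy skin. In replicate 2 the 4 genes were 1.55, 1.70, 2.46 and 1.74 below the healthy mean. Against background, they were at least 8.03, 7.01, 7.32 and 6.84 below it in replicate 1, and at least 7.57, 6.54, 6.86 and 6.38 in replicate 3.

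The second probe sets of Scd1 (9.73, against 2.96 and 2.20 in tumour replicates 1 and 3), of Elovl4 (7.18, against 4.35 and 4.37) and of Elovl6 (7.07, against 3.75 and 2.85) were also highest in replicate 2. Of these, Scd1 in replicates 1 and 3 and Elovl6 in replicate 3 were under background. Acly makes the acetyl-CoA from which fatty acids are built. It read 7.72, 8.37 and 4.04 in tumours, against 8.08, 10.81 and 9.32 in healthy skin. Its probe set ends in _x_at, and its probes may match other transcripts. Acly was highest in replicate 2, but by only 0.65 over replicate 1, and replicate 3 alone was far lower. Another Acly probe set was also highest in replicate 2 (4.91, 6.90 and 5.83), and a further one was not (5.78, 5.75 and 4.69). The remaining Acly probe sets were under background on all arrays. Fasn, Acaca, which makes malonyl-CoA for fatty acid synthesis, and Acacb, whose malonyl-CoA regulates fatty acid oxidation, were not highest in replicate 2.

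With all 6 arrays Scd1, Elovl4, Elovl6 and Fa2h differed by -6.07, -5.48, -6.38 and -6.19, and none passed the adjusted threshold in limma. The fit without tumour replicate 2 called these 4 genes, where 0.0511% of all probe sets were called; the tumour values it used for them were all under background. The mean over the 14 measured keratinocyte markers did not have this order: it was 6.19, 5.70 and 4.43 (log2) in tumour replicates 1, 2 and 3, against 7.39, 7.62 and 7.96 in healthy skin. The part of the macrophage signal and of the hybridization control level of replicate 2 in this order was not tested.

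**Figure D3:**
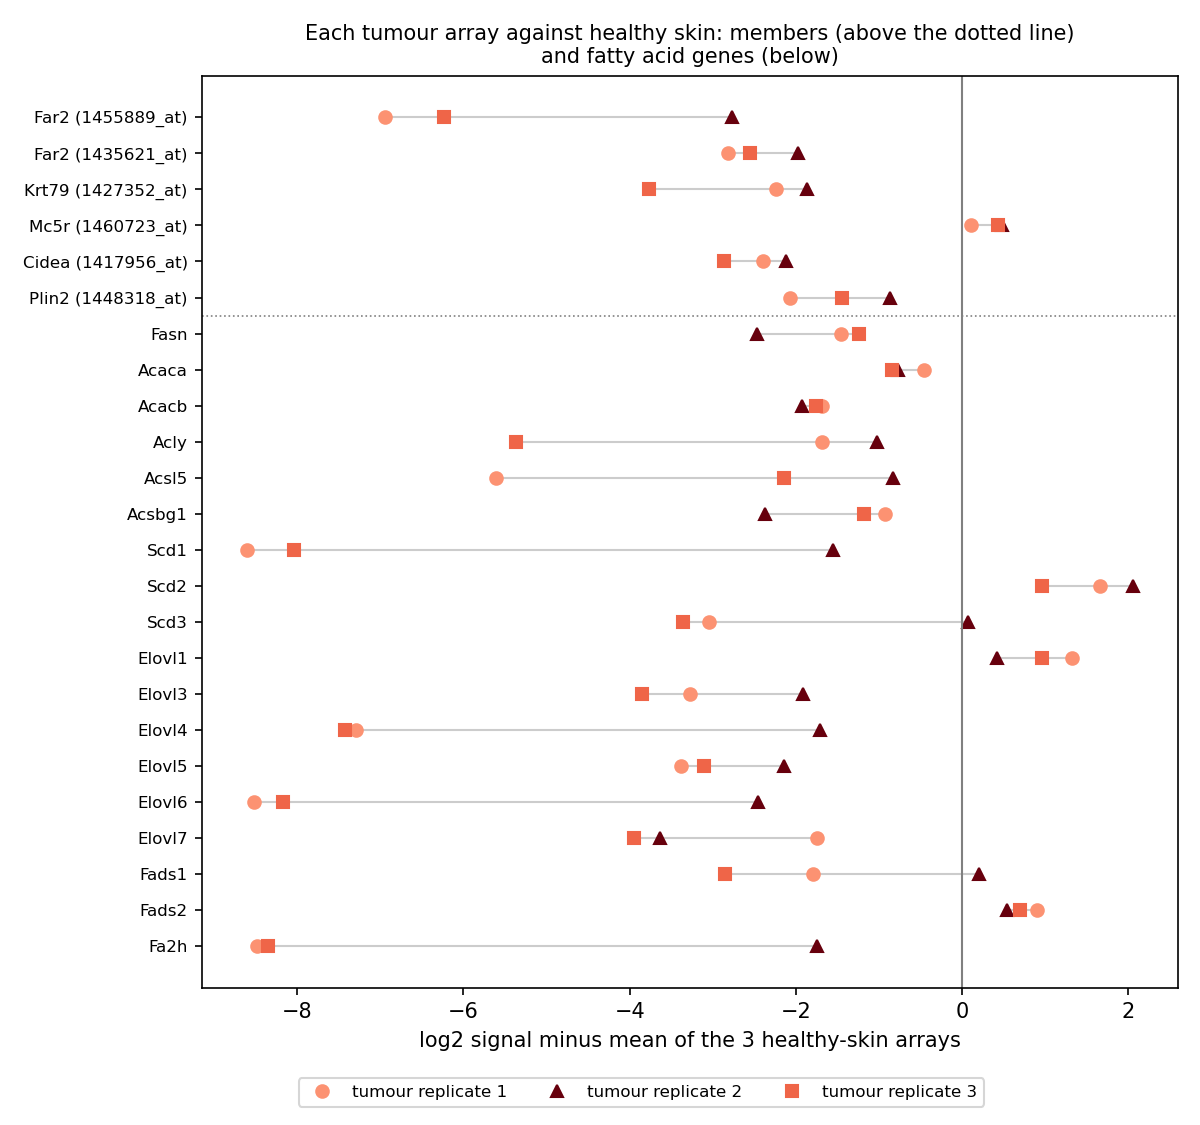
Signal of each tumour array minus the mean of the 3 healthy-skin arrays (log2) for the member probe sets above the dotted line and the 18 measured fatty acid genes below it. The dark triangles of tumour replicate 2 lie to the right of the other tumour arrays by 3.46 for Far2 on 1455889_at, and for Fasn they lie to the left. Values under background, as for Scd1 in tumour replicates 1 and 3, are plotted as measured.

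Other lipid droplet genes showed no common difference. Of 16 listed, 15 were measured, with a median of -0.25, none past the adjusted threshold in limma, and 0 lower and 1 higher at an unadjusted p under 0.05 (4.28% and 3.22% of genes). The higher one was Plin3, a droplet coat protein found in most cells, which read 5.80, 7.33 and 6.31 (log2) in tumours, against 4.81, 5.59 and 5.25 in healthy skin. Its difference was 1.27 with a standard error of 0.46 (limma adjusted p = 0.719), opposite in sign to Plin2, and was 0.84 without tumour replicate 2. Plin4, a further coat protein, read 5.03, 3.95 and 5.37 (log2) in tumours, against 5.80, 6.26 and 5.31 in healthy skin (limma adjusted p = 0.809). The monoglyceride lipase gene Mgll differed by -1.42 and the droplet formation gene Fitm2 by -1.22 (limma adjusted p = 0.809 and 0.804). Without tumour replicate 2, Mgll differed by -2.17. The other Mgll probe sets differed by -2.39, with groups that did not overlap, and by -1.09 and 0.38, with groups that did. Cidec, the relative of Cidea found in white fat, was below background on all 6 arrays.

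Among the regulators and progenitor markers of the gland, 14 of 15 were measured, with a median of -0.30. None passed the adjusted threshold in limma, and 3 were lower and 0 higher at an unadjusted p under 0.05, where 4.28% of genes were lower and 3.22% higher. Srebf1, a transcription factor of fatty acid synthesis, differed by -2.10 (standard error 0.40, limma adjusted p = 0.367). Insig1, which holds SREBP proteins in the endoplasmic reticulum, read 4.46, 5.28 and 4.34 (log2) in tumours, against 6.41, 8.01 and 7.31 in healthy skin (difference -2.55, standard error 0.48, limma adjusted p = 0.367).

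Mgst1, a glutathione transferase abundant in sebocytes, read 3.87, 6.42 and 3.34 (log2) in tumours, against 6.68, 9.16 and 6.77 in healthy skin. It differed by -2.99 (standard error 0.99, limma adjusted p = 0.694), or by -3.93 without tumour replicate 2, was highest of each group in replicate 2, and had a second probe set that differed by -0.12. Sox9, a follicle stem cell factor, differed by -0.73 (limma adjusted p = 0.855). Pparg, which drives sebocyte differentiation, and Prdm1, a factor reported in sebocytes, were named outside the rule and differed by -1.24 and 0.21 (limma adjusted p = 0.87 and 0.944). Without tumour replicate 2 Pparg differed by -2.11.

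Of 12 melanocortin ligands, receptors and accessory proteins, 8 were measured, with a median of 0.20. None passed the adjusted threshold in limma, and 0 were lower and 1 higher at an unadjusted p under 0.05 (4.28% and 3.22% of genes). That gene was Pomc, the precursor of the melanocortin peptides, with 5.43, 4.77 and 6.58 (log2) in tumours, against 4.57, 4.73 and 3.29 in healthy skin (difference 1.40, standard error 0.59, limma adjusted p = 0.785). Its second probe set differed by 0.17. The receptor gene Mc3r differed by 0.37, and Atrn, which encodes attractin, a membrane protein needed for agouti signalling, by -0.56. The accessory protein gene Mrap2 was above background on 2 tumour arrays and on no healthy-skin array, so that no fold is given.

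Markers of the other cell types in which these genes are known were read beside them. The 14 measured keratinocyte markers had 13 negative differences and a summed linear signal of 472 to 3505 in tumours, against 6011 to 8741 in healthy skin. Their 2 brightest were Dsp, which encodes desmoplakin of cell junctions, with a difference of -2.98, and the basal keratin gene Krt5. Krt5 read 10.53, 9.02 and 6.50 (log2) in tumours, against 10.74, 10.02 and 10.02 in healthy skin, and Krt14, its partner, read 9.23, 6.89 and 3.92 in tumours, against 8.52, 9.23 and 9.54. Both thus overlapped healthy skin in tumour replicate 1, and the list was lowest in replicate 3. In 8 of the 14 markers, Krt5 and Krt14 not among them, every tumour value lay below every healthy one, against 5.36% of all genes. The part of keratinocytes in the members' differences was not tested. The 15 hair follicle markers had 9 negative differences and summed to 258 to 323 in tumours, against 330 to 467 in healthy skin. Of the 2 brightest, Krt17, which also marks other layers of the follicle, differed by -1.38 and Krt71, of the inner root sheath, by 0.05.

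Adipocyte markers overlapped between the groups on the brightest probe set of each gene. The 7 measured summed to 182 to 839 in tumours, against 204 to 726 in healthy skin. The 2 brightest, Fabp4 and Retn, differed by 0.28 and 0.29. Fabp4 read 7.01, 8.06 and 9.58 (log2) in tumours, against 7.02, 9.41 and 7.40 in healthy skin. No other marker read above 4.44 on any array, so the sums mainly follow Fabp4. Another Fabp4 probe set was higher on every tumour array (difference 1.44), and its others differed by 0.42 and 0.83 with overlapping groups. Adipoq, the adiponectin gene that defines white fat cells, was below background on all 6 arrays, as were Cidec and Pck1. The 6 brown fat markers, of which Elovl3 and Cox8b (0.64) were the brightest, summed to 81.4 to 121 in tumours, against 117 to 230 in healthy skin. Elovl3 is also in the fatty acid list, and in a sum without it, added after the data were seen, the other 5 came to 71.9, 64.8 and 114 in tumours, against 62.2, 82.5 and 35.8 in healthy skin, with overlapping groups. Ucp1, which defines brown fat, read 4.10, 4.38 and 4.80 (log2) in tumours, against 4.65, 4.69 and 3.58 in healthy skin, with overlapping groups. The 13 mammary epithelium markers summed to 176, 457 and 180 in tumours, against 217, 276 and 201 in healthy skin, so that tumour replicate 2 was above and the other tumours were below every healthy sample. The brightest, Epcam and Btn1a1, differed by -0.89 and 0.23, and the milk protein gene Csn2 was below background throughout. The 12 macrophage markers, which bear on Plin2, had 11 positive differences and summed to 1510, 7015 and 1777 in tumours, against 1499, 1524 and 1395 in healthy skin. The high sum was that of tumour replicate 2 alone. The brightest, Csf1r and Lyz2, differed by 1.83 and 0.49, and without that array by 1.22 and -0.03.

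The 11 skeletal muscle markers, which bear on Mc5r, summed to 151 to 269 in tumours, against 122 to 216 in healthy skin, and the brightest, Tnnc2 and Tnni2, differed by -0.03 and 0.27. The 8 melanocyte markers summed to 134, 208 and 135 in tumours, against 117 to 135 in healthy skin, with the high value in tumour replicate 2. The brightest, Sox10 and Mitf, differed by 0.48 and -0.49. The 11 pan-endothelial markers summed to 757 to 982 in tumours, against 262 to 309 in healthy skin, and the brightest, Cdh5 and Cldn5, differed by 2.10 and 2.17. Of the lymphatic markers, the brightest, Flt4 and Mmrn1, differed by 1.77 and 0.49.

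Genes with the most similar profile were ranked among 18188 genes by the root mean square difference between profiles centred on their own mean over the 6 arrays. A smaller value means a closer match, and since the contrast shapes the profiles the ranking is a description. For Far2 on 1455889_at the nearest were Idh1, the cytosolic isocitrate dehydrogenase, Hadh, an enzyme of fatty acid oxidation, and Lss, the lanosterol synthase of cholesterol synthesis, at 0.92, 0.92 and 0.94 (log2). Each was highest among the tumours in replicate 2, and Lss read 3.61, 7.30 and 3.14 in tumours, against 8.59, 9.21 and 8.73 in healthy skin. The Hadh probe set ends in _x_at. Idh1 in tumour replicates 1 and 3 and Lss in replicate 3 were under background, so those values are only upper bounds. The distances here and below rest partly on such values.

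For Krt79 the nearest were Krt1, a keratin of the upper epidermis, at 0.36, Decr1, a mitochondrial reductase of fatty acid oxidation, at 0.36, and Hacd3, a dehydratase of fatty acid elongation, at 0.37. Krt1 read 3.38, 3.54 and 2.55 (log2) in tumours, against 4.78, 6.03 and 5.78 in healthy skin. Krt1 in tumour replicates 1 and 3 and Decr1 in replicate 3 were under background. Cidea was nearest to Rad17, a DNA damage checkpoint gene, at 0.25, to Psd3 at 0.34 and to Srebf2, the transcription factor of cholesterol synthesis, at 0.37. These 3 shared its high value in healthy-skin replicate 2, which for Srebf2 was 7.59 against 3.67 and 5.71 in replicates 1 and 3. Rad17 was under background on all tumour arrays and Srebf2 in tumour replicates 1 and 3. Both were also under background in healthy-skin replicate 1.

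For Plin2 the nearest were Uchl5, Bod1 and Npat at 0.14, 0.17 and 0.17. The measure is not scaled, and since Plin2 spanned 2.41 (log2) over the arrays against 7.86 for Far2 on 1455889_at, its values cannot be compared between members. Uchl5 encodes a deubiquitinase of the proteasome and differed by -1.54, Bod1 a protein of chromosome orientation in mitosis (-1.70) and Npat a regulator of histone genes (-1.25).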

How the data were processed

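The deposited table holds an intensity for each of 45101 probe sets. Per the submitters' processing notes it was made with RMA, a method that in general corrects background, equalises arrays by quantiles and summarises probes. The deposited arrays were not identical in distribution: their medians ran from 3.25 to 3.45 (log2). For the RMA software and the genome build, nothing is given in the sources used here. Since the intensities ran from 1.45 to 33063 they were read as linear and their log2 was used, with no pseudocount. Tests left out the 64 control probe sets and nothing else.

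The comparison used a two-sided limma fit (version 3.58.1, R 4.3.3, eBayes) with Benjamini-Hochberg adjustment over 45037 probe sets. The script was tested on simulated data with planted differences. A gene was read by its probe set with the highest mean over 6 arrays. The members, 5 lists of other pathway genes and 10 of markers were chosen with earlier results of these data known. Genes were named by a rule: every member probe set, the 4 smallest p of each pathway list, the 2 brightest of each marker list, and the 3 nearest profiles of each member spanning at least 2 log2 units. Others named are defining markers of a cell type and genes said to be outside the rule. Marker lists were given mainly as sums.

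The replicate numbers are shared between groups, but the labels name no shared animal or day, so no block was used. Deviations from group means of same-numbered arrays correlated at 0.04, 0.10 and -0.01. Those of differently numbered arrays correlated at between -0.15 and 0.12. With so few arrays per group, these correlations cannot show whether samples were paired. Arrays give signal over background, not depth, and their number limits precision. Alternatives were quantile normalization, centring on medians, leaving out dim probe sets, array weights, a replicate block, trended and robust eBayes, a pseudocount of 16, mean probe sets per gene, and each array left out.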

Additional observations from a re-analysis of the deposited data

How the results depend on the processing

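The 5 separate member probe sets stayed separate under both rescalings. The filter on dim probe sets, the pseudocount and leaving out an array could not make separate groups overlap. Among the alternatives, only the rescalings could have changed the sign of these probe sets' differences. No measured member changed sign in any alternative: Far2 ranged from -6.59 to -3.88, Krt79 from -3.08 to -2.05, Cidea from -3.35 to -1.42, Plin2 from -1.85 to -1.16 and Mc5r, below background, from 0.10 to 0.48 (log2). The median over members ranged from -3.08 to -1.42 with an array left out, -1.42 being without healthy-skin replicate 2, and from -2.62 to -1.57 otherwise. The number of probe sets called over the whole table, 2, was 21 with the filter on dim probe sets, 22 with array weights, 1 with trend and robust options, and 0 with centring, with the pseudocount of 16 and with the replicate block. With an array left out it ranged from 0 to 23, the highest without tumour replicate 2. The cause of these changes was not tested. Other pathway genes called stayed at 0, or 0 to 4 with an array left out (4 without tumour replicate 2, all 4 under background on both remaining tumour arrays), and those lower at an unadjusted p under 0.05 (17) were 27 with array weights and 13 to 21 with an array left out. The mean summed brown fat signal differed by -63.1 between tumours and healthy skin, and by 23.4 without Elovl3, an alternative chosen after seeing the data. Each replicate number is in both groups, so the replicate block could not change a member's difference. With 3 arrays a group, only large differences can pass, and signals near 3 to 4 (log2) cannot be told from background.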
